A study of Mus musculus with 12 samples.

Results

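The vascular cells of mammary glands and mammary tumors from Brca1-deficient mice were selected on detected marker genes. A cell was taken as endothelial when at least 3 of 8 genes (Pecam1, Cdh5, Flt1, Emcn, Kdr, Egfl7, Plvap and Esam) each had at least 1 UMI (unique molecular identifier, 1 captured RNA molecule). A cell was taken as mural when it was not endothelial and had at least 3 of 7 genes (Rgs5, Notch3, Des, Pdgfrb, Mcam, Kcnj8 and Abcc9). These rules found 229 endothelial and 6 mural cells among 21157 cells. The cells were thus chosen by their own counts of these 15 genes, which are given below as a description and were not tested. Drop-seq, which captures single cells with barcoded beads in droplets, gave 12 libraries from 2 mice of mixed C57BL/6 and 129/Sv strain, both MMTV-Cre; Brca1 flox/flox. MG1 (2 libraries) and MT1 (5 libraries) were mammary gland and tumor of mouse 1, and MG2 (2 libraries) and MT2 (3 libraries) were those of mouse 2. Gland and tumor thus carried the same alleles, and no mouse without the Brca1 alleles entered any group. MMTV-Cre acts in mammary epithelium, so the vessels were those of a host whose epithelium was the target of the deletion. The labels give neither an age for these mice nor which glands were taken. The study's methods give an age range and the fourth pair of glands for gland donors in general, virgin or pregnant. They do not say whether this held for these tumor-bearing mice. All suspensions had been depleted of hematopoietic and endothelial cells before capture, so the cells described here are those that remained after the depletion.

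Endothelial cells line all blood and lymph vessels. Arteries, capillaries and veins differ in the genes they use: capillaries of fatty tissue take up fatty acids, small veins carry the adhesion molecules that let leukocytes leave the blood, and sprouting vessels are led by tip cells that answer to VEGF and secrete apelin. Mural cells (pericytes and smooth muscle cells) wrap the endothelium and share its basement membrane. High endothelial venules are the specialised veins of lymph nodes, through which lymphocytes enter, and the fourth (inguinal) mammary fat pad of the mouse holds such a node.

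The endothelial cells came from every library, 15 and 4 cells from the MG1 libraries, 50 and 39 from MG2, 8, 11, 26, 26 and 13 from MT1 and 16, 7 and 14 from MT2. The libraries held 105 to 4874 cells and 693333 to 14841414 UMIs. The median number of UMIs per endothelial cell was 3118 (MG1), 2455 (MG2), 1958 (MT1) and 2188 (MT2), against 3492, 2459, 2116 and 3088 in the cells outside the vascular sets. None of the vascular cells shared its barcode with a cell of another library (0 of 235). Of the 229 endothelial cells, 69 were mixed, having 2 or more UMIs of each of at least 2 epithelial, fibroblast or immune markers: 8 of 19 in MG1, 23 of 89 in MG2, 36 of 84 in MT1 and 2 of 37 in MT2. All 69 met this through epithelial markers. The mouse 1 gland was the thinnest part of the data, with 19 endothelial cells, of which the 15 of MG1 replicate 1 entered the count fit and the 4 of MG1 replicate 2 did not.

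The endothelial label was checked with 16 endothelial genes that the rule did not use. At least 3 of them were detected in 213 of the 229 cells (93%), in 25 of the 33 cells that had exactly 3 rule markers, in 19 of the 45 cells just outside the rule with exactly 2, and in 10 of the 20222 cells with none. Ranked by the lowest ratio over the 4 groups to the other cells, among genes at 200 CPM (UMIs of a gene per 1000000 UMIs of the summed cells) or more in every group, the first were Ptprb, Cd93, S1pr1, Apold1 and Gimap6. Ptprb, the receptor phosphatase that restrains Tie2 and VE-cadherin signalling, was at 805 (MG1), 739.6 (MG2), 312 (MT1) and 201 CPM (MT2), against at most 2.97 CPM in the other cells of a group. Cd93, an endothelial surface lectin, was at 755, 489, 677 and 562 CPM in the same order. Of 7 immune markers, Ptprc, Tyrobp and Coro1a had 0 UMIs in the endothelial cells of all 4 groups. All 7 were at 0 in MG1 and MT1. Laptm5, Lyz2 and Cd52 were detected in MG2, and Fcer1g and Lyz2 in MT2. The summed level of the 7 was 10.997 CPM (MG2) and 16.1 CPM (MT2), against 7.74 and 96.8 CPM in the other cells.

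Among the rule genes, given only as a description, the junction protein gene Cdh5 was at 508 (MG1), 519.6 (MG2), 478 (MT1) and 466 CPM (MT2). Pecam1, the platelet and endothelial adhesion molecule, was at 817 (MG1), 1056 (MG2), 828 (MT1) and 626 CPM (MT2). The VEGF receptor gene Flt1 was at 1771 (MG1), 811 (MG2), 743 (MT1) and 931 CPM (MT2). Plvap, which forms the diaphragms of fenestrae and caveolae, was at 458 (MG1), 668 (MG2), 753 (MT1) and 265 CPM (MT2). The level of Cdh5 thus varied least between the groups of these 4 genes, and MT2 had the lowest level of Plvap.

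Endothelial cells made up a larger share of the gland suspensions than of the tumor suspensions in both mice. The share was 2.96 ± 1.21% in MG1 (SD, n = 2 libraries), 3.81 ± 0.595% in MG2 (SD, n = 2 libraries), 1.12 ± 0.253% in MT1 (SD, n = 5 libraries) and 0.416 ± 0.242% in MT2 (SD, n = 3 libraries). The single libraries were at 2.1 and 3.81% (MG1), 4.23 and 3.39% (MG2), 0.974, 1.5, 1.04, 1.23 and 0.849% (MT1) and 0.603, 0.144 and 0.502% (MT2), and no gland library overlapped a tumor library. Tumor minus gland, averaged over the mice, was -2.61 percentage points (-1.84 in mouse 1 and -3.39 in mouse 2, two-sided exact permutation of tissue within mouse, p = 0.00476, adjusted p = 0.0143 over 3 shares tested). The mouse 1 value was -0.984 points without MG1 replicate 2 and -2.69 without MG1 replicate 1. The average was -1.87 points when every cell was first thinned to 1000 UMIs. The suspensions had been depleted of endothelial cells, so these are shares of what the depletion left, and its efficiency in gland and tumor was not measured. The exact Clopper-Pearson 95% intervals drawn in the plot of endothelial shares cover counting error only.

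**Figure D1:**
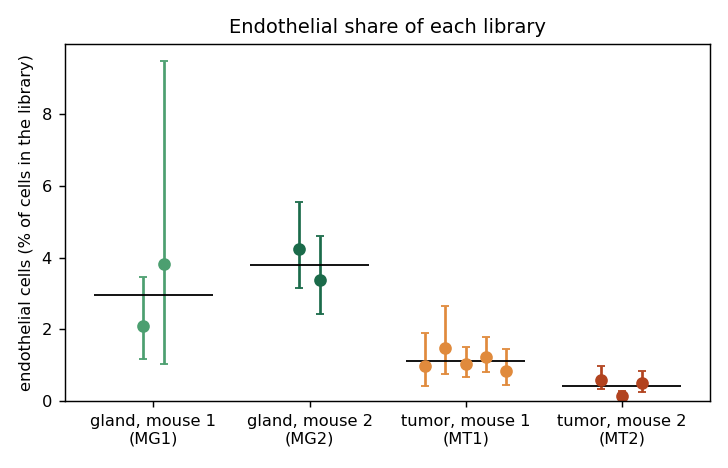
Endothelial cells as a percentage of all cells in each of the 12 libraries, by group. Points are libraries with exact 95% binomial intervals and bars are group means; the 4 gland libraries (2.1 to 4.23%) lie above the 8 tumor libraries (0.144 to 1.5%).

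The gland endothelium held a distinct set of Glycam1-high cells, mostly in mouse 2. Glycam1 encodes a mucin-like ligand of L-selectin that is made by high endothelial venules and by secretory mammary epithelium. The gene and the limit of 5 UMIs were chosen after its values were seen, so the split is described without a test. In MG2, 33 of 89 endothelial cells (37.1%, 95% interval 27.1 to 48%) had 9 to 545 Glycam1 UMIs with a median of 71, and the other 56 had 0 or 1, so that no cell lay between. The 2 MG2 libraries had shares of 36% and 38.5%. In MG1, 1 of 19 cells was Glycam1-high (190 UMIs, in MG1 replicate 2, in a cell of 9709 UMIs). Whether that cell was of the same kind as those of MG2 was not tested. None of the 121 tumor cells had a Glycam1 UMI (0 of 121, which allows a share of cells with a UMI of up to 3% by the exact interval). Of the 3043 other gland cells, 32 (1.05%) reached 5 UMIs, with median depths of 2665 UMIs against 2478 in the Glycam1-high endothelial cells. Whether these glands were the fourth pair, and whether its lymph node was removed at dissection, is not given in the sources used here. Vessels of the gland and of the node therefore cannot be told apart.

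**Figure D2:**
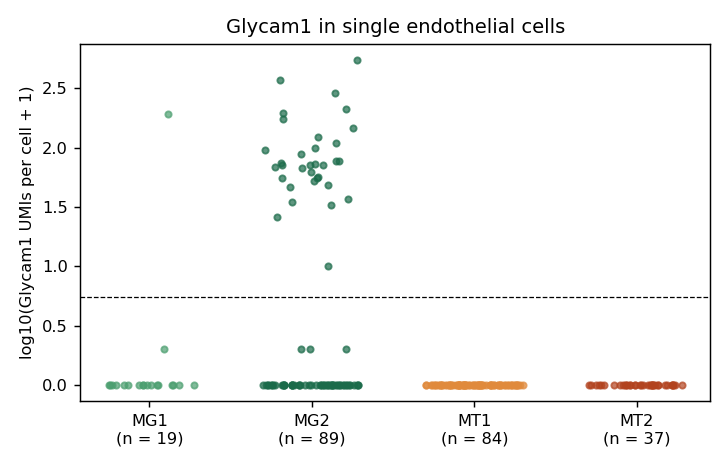
Glycam1 UMIs in each of the 229 endothelial cells on a log10 scale after adding 1, by group; points are cells, spread sideways at random, and the dashed line separates cells under 5 UMIs from those with 5 or more. In MG2, 33 cells lie at 9 UMIs or above and 56 at 0 or 1, and all tumor cells lie at 0.

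The Glycam1-high cells of MG2 carried the enzymes that build L-selectin ligands. Chst4, a sulfotransferase of high endothelial venules, was detected in 9 of the 33 Glycam1-high and 0 of the 56 other MG2 endothelial cells. Fut7, a fucosyltransferase of the same pathway, was detected in 10 of the 33 Glycam1-high and 0 of the 56 other MG2 endothelial cells. Neither had a UMI in any of the 2244 other MG2 cells. Enpp2 (autotaxin) was detected in 32 of the 33 Glycam1-high and 1 of the 56 other MG2 endothelial cells, and the ubiquitin-like gene Ubd in 31 of the 33 Glycam1-high and 0 of the 56 other MG2 endothelial cells. Ccl21a, the chemokine that draws lymphocytes into nodes, was detected in 25 of the 33 Glycam1-high and 2 of the 56 other MG2 endothelial cells. Its counts may hold reads of near-identical Ccl21 copies. In contrast the lymphatic regulator Prox1 was detected in 0 of the 33 Glycam1-high and 8 of the 56 other MG2 endothelial cells. Ccl21a and the lymphatic gene Lyve1 were detected together in 5 of 108 gland endothelial cells, of 27 with Ccl21a and 13 with Lyve1. The casein gene Csn2 had 521 against 1899 CPM in Glycam1-high and other MG2 endothelial cells and 2617 CPM in the other MG2 cells, while Glycam1 had 26403, 13.2 and 447 CPM, so the ratio of these 2 milk genes differed between the 3 sets of cells.

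The Glycam1-high cells also differed from the other MG2 endothelium in vascular genes. Cd36, the fatty acid translocase of capillaries, was detected in 1 of the 33 Glycam1-high and 47 of the 56 other MG2 endothelial cells. Sele (E-selectin) had 110.1 against 787 CPM in Glycam1-high and other cells, and Selp (P-selectin) had 1027 against 2541 CPM. Ackr1, the chemokine receptor of small veins, was at 799.9 against 1200.2 CPM. The cadherin gene Pcdh7 went the other way with 726 against 154 CPM. The part of these cells in each comparison below was measured by fitting the comparison again without the 34 Glycam1-high gland cells, an alternative chosen after the data were seen.

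Endothelial cells of the tumors were compared with those of the glands of the same mice to ask how vessels differ between these tissues. Counts were summed over the endothelial cells of each library and fitted with edgeR's quasi-likelihood test, with Benjamini-Hochberg adjustment over 4901 genes and a threshold of 0.05. Averaged over the 2 mice, 249 genes rose and 553 fell from gland to tumor. These were 5.08% and 11.3% of the genes tested. The counts of called list members below stand against these shares. Of the 802 genes, 767 had the same direction in both mice. Without the Glycam1-high cells, 310 rose and 485 fell of 4783, and 692 of the 802 remained called. In mouse 1 alone 71 rose and 265 fell (6.86% in all), and in mouse 2 alone 197 rose and 399 fell (12.2%). The excess of falling genes in mouse 1 rested on MG1 replicate 1: with MG1 replicate 2 added the counts were 221 and 223, and with MG1 replicate 2 in its place they were 130 and 113, with 76 of the 336 genes shared. The mouse 2 total of 596 became 321 without MG2 replicate 1, 375 without MG2 replicate 2 and 384 without MT2 replicate 3. The average comparison had 493 called genes when MG1 replicate 1 was replaced by the 4 cells of MG1 replicate 2. Values in parentheses after a library left out or replaced below are log2 fold changes in that fit. The libraries of a group are captures from 1 tissue of 1 mouse, so the p-values measure the spread between libraries and not between animals. In summed counts, fewer cells using a gene and less RNA per cell cannot be told apart.

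Many single calls depended on the fit, and 98 called genes were followed one by one through the alternatives. With 1 sum per group and the mouse as block (4 sums), 46 were not called, among them Ift122, Ttc9, Emid1, Gng2, Aplnr, Dnm3, Lipg, Chp2, Angptl4, Dll1, Hes1, Icam1, Vcam1, Ackr1, Jam2, Tjp1, Cavin2, Cavin3, Meox2, Sparcl1, Mgp, Igfbp7, Erg, Etv6, Nr2f2, Thbd, Edn1, Procr, Birc5, Cdk1, Cdca8, Fos, Fosb, Jun, Junb, Jund, Ier3, Zfp36, Cxcl9, H2-K1, Hk2, Aldoa, Pgk1 and Il6. With DESeq2, 40 were not called, among them Esm1, Cd276, Ift122, Kcne3, Ttc9, Emid1, Gng2, Aplnr, Sult1a1, Bmp4, Stom, Dnm3, Hs3st1, Lipg, Chp2, Angptl4, Dll1, Vcam1, Tjp1, Lpl, Meox2, Mgp, Etv6, Nr2f2, Edn1, Zfp36, Hk2, Pgk1, Il6 and all 6 proliferation genes described below. With the marker rule on thinned cells, 21 were not called, among them Cd276, Ift122, Jam2, Tjp1, Lpl, Meox2, Erg, Nr2f2, Fos, Hk2, Aldoa, Pgk1 and Cxcl12. Apln, Fam167b, Afap1l1, Igfbp3, Mest, Lifr, Iigp1, Tmcc3, Mctp1, Pgf, Ptprb, Selp, Cd36, Fabp4, Gpihbp1, Col4a1, Col4a2, Lama4, Nid2, Sparc, Egr1, Pkm, Il6st and Csf3 were called in each alternative in which they could be tested.

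Some of the called genes also differed between the other cells of tumor and gland. Of the 249 genes that rose, 157 were also at least 2-fold higher in the other cells of the tumors than in those of the glands. Of the 553 that fell, 268 were at least 2-fold lower there (ratio of CPM plus 5). How many of all genes tested met these limits was not counted, so no excess is read from these numbers. Droplets hold free RNA, and the summed level of 9 epithelial markers in endothelial cells was 1764 to 3387 (MG1), 4539 to 5278 (MG2), 6203 to 11486 (MT1) and 134 to 399 (MT2), in CPM per library. In the other cells it was 12946 to 14795 (MG1), 16804 to 16954 (MG2), 11613 to 16539 (MT1) and 639 to 874 (MT2). Endothelial cells of MG2 and MT1 had UMIs of all 9 markers, those of MG1 of 8 and those of MT2 of 2, where Epcam, Krt14, Krt5, Krt19, Cdh1, Wfdc18 and Csn3 were at 0. The part of epithelial RNA in the calls was not tested beyond refitting without mixed cells, which left 153 higher and 222 lower of 2574 genes. The genes named next therefore had at least 4 times the level of the other cells in the tissue where they were higher.

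**Figure D3:**
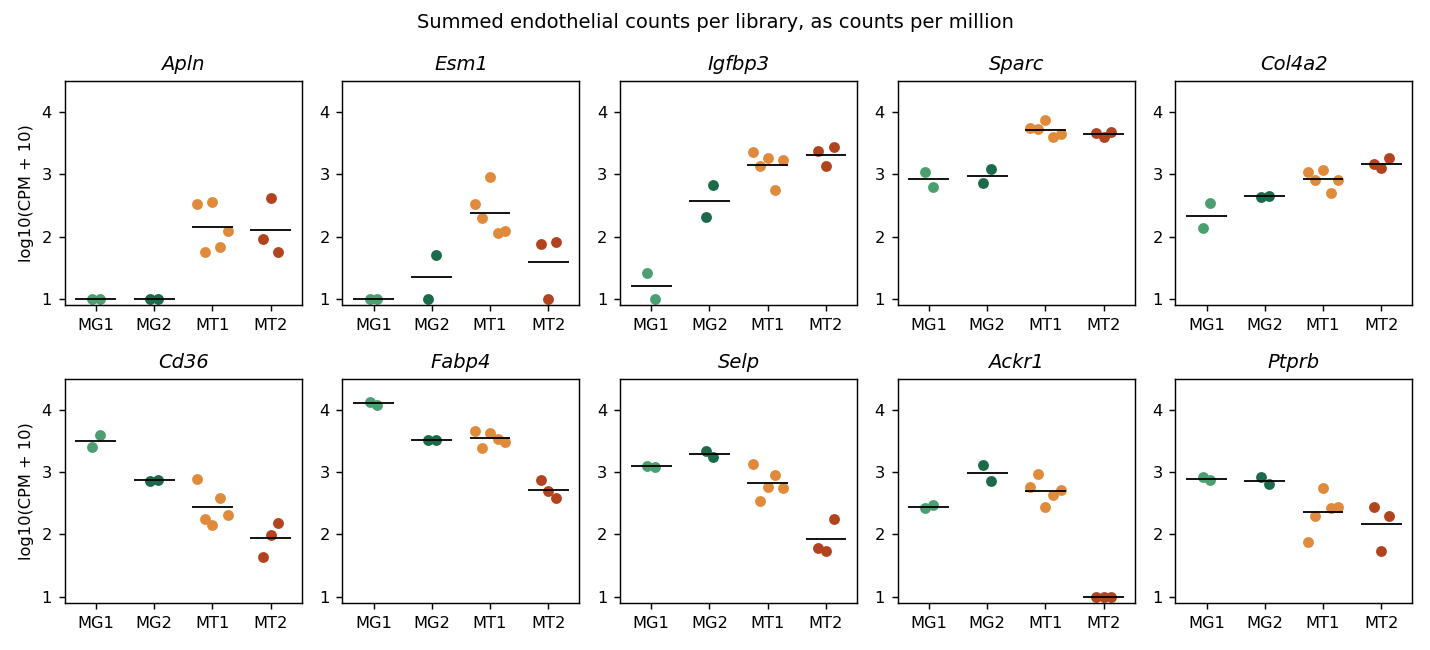
Summed endothelial counts of 10 genes in the 12 libraries, as log10(CPM + 10), by group; points are libraries and bars are means of the plotted values. Apln, Sparc and Col4a2 lie higher in all 8 tumor libraries than in all 4 gland libraries, Ptprb lies lower in all 8, and Ackr1 is at 0 CPM in the 3 MT2 libraries only.

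Apln, which encodes the secreted peptide apelin and is known from tip cells, showed the largest fitted increase among the named genes. It lies at chrX:48025146-48034853, - strand (GRCm38, GENCODE vM21 gene bounds). It had 0 UMIs in all 4 gland libraries and was at 321, 47.8, 346, 59.6 and 115 CPM in the MT1 libraries and 83.2, 402 and 47.6 CPM in the MT2 libraries. All 8 tumor libraries had Apln and none of the gland libraries did. Against the limit of 3 counts over the gland cells, its level was at least 22.5-fold higher in tumor, at least 4.46-fold in mouse 1 and at least 15.6-fold in mouse 2 (adjusted p = 8.52e-08). It was detected in 29 of 121 tumor endothelial cells. Its level in the other cells of the tumors was 5.69 CPM. Aplnr, the apelin receptor, was at 0 and 0 CPM (MG1), 18.6 and 6.73 (MG2), 128, 119, 66, 29.8 and 76.6 (MT1) and 49.9, 44.6 and 71.3 (MT2). It also rose (log2 fold change 3.47 ± 1.29, adjusted p = 0.0449), near the threshold, and lost its call in 17 of 23 alternatives (that without the Glycam1-high cells among them), 7 of which left out 1 library (3.22 to 3.56).

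Esm1 (endocan), a proteoglycan secreted by tip cells, rose in the average (4.44 ± 1.01 on the log2 scale, adjusted p = 0.000335). In mouse 1, where MG1 had 0 UMIs, it was at least 9.94-fold higher in tumor, and in mouse 2 its change of 1.40 did not pass the test (adjusted p = 0.326). It lies at chr13:113209659-113218098, + strand. Its levels were 0 and 0 CPM (MG1), 0 and 40.4 (MG2), 321, 191, 907, 104 and 115 (MT1) and 66.6, 0 and 71.3 (MT2), so that 1 tumor library had none and MT1 replicate 3 had the most. Esm1 was not called by DESeq2. Igfbp3, which binds insulin-like growth factors, was at 15.8 and 0 CPM (MG1), 199.8 and 667 (MG2), 2247, 1337, 1798, 551 and 1686 (MT1) and 2396, 1338 and 2711 (MT2), and it rose by 4.06 ± 0.47, adjusted p = 6.89e-15 on the log2 scale. The other cells of the tumors had 12.6 CPM of Igfbp3. In the 121 tumor endothelial cells, Apln and Esm1 were detected together in 5, of 29 with Apln and 23 with Esm1.

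The other 11 genes with the largest increases were Fam167b, BC028528, Afap1l1, Ms4a6d, Cd276, Ift122, Kcne3, Ttc9, Mest, Emid1 and Gng2, with log2 fold changes from 3.58 to 4.62. The imprinted gene Mest had 9 CPM in gland and 226 CPM in tumor and a change of 3.64 ± 0.58, adjusted p = 5.22e-08. Cd276 encodes the checkpoint protein B7-H3, and it had 6.75 CPM in gland and 77.4 CPM in tumor (4.06 ± 1.17, adjusted p = 0.00664). The potassium channel subunit gene Kcne3 had 13.5 CPM in gland and 95.3 CPM in tumor (3.87 ± 1.08, adjusted p = 0.00477). Afap1l1 encodes an actin filament-associated protein and had 13.5 CPM in gland and 134 CPM in tumor (4.41 ± 0.96, adjusted p = 0.000151). The G protein subunit gene Gng2 (3.58 ± 1.31, adjusted p = 0.0422) was not called in 17 of 23 alternatives, 7 of which left out 1 library (3.22 to 3.70). Emid1 was not called in 11 of 20 alternatives, 5 of which left out 1 library (3.39 to 3.68). Ift122 was not called in 7 of 22 alternatives, among them without MG2 replicate 1 (3.33), without MT2 replicate 2 (3.68) and with MG1 replicate 2 in place of MG1 replicate 1 (3.95). Cd276 (4.04), Kcne3 (3.85) and Ttc9 (0.96) were not called with MG1 replicate 2 in place of MG1 replicate 1. Kcne3 (3.75) and Ttc9 (3.38) were also not called without mixed cells. Fam167b, BC028528, Afap1l1, Ms4a6d, Igfbp3, Mest and Apln kept theirs in all 24.

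Promoter windows were set beside 4 genes called in opposite directions in the average over mice, Apln and Esm1 (higher in tumor) and the venous genes Selp and Ackr1 (lower). Of these, Esm1 did not pass the test in mouse 2, and Ackr1 was not called in mouse 1. Each is the 250 bases before the RefSeq start on the gene's strand (GRCm38.p6), with capitals marking AGGAAG, the core bound by ETS factors, or ACGTG, the core of hypoxia response elements, on either strand. Of 32851 such windows in the table, 29.5% held AGGAAG and 16.6% held ACGTG.
Apln (chrX:48034854-48035103, - strand): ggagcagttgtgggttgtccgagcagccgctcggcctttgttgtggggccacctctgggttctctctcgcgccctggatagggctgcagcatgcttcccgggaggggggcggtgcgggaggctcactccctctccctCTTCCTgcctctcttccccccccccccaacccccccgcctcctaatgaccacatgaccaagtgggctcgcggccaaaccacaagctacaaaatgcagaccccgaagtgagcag
Esm1 (chr13:113209409-113209658, + strand): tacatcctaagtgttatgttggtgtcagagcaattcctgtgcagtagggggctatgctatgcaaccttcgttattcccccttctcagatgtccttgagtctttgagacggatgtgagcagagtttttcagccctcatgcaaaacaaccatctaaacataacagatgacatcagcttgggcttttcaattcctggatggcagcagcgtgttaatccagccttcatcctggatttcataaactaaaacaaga
Selp (chr1:164115014-164115263, + strand): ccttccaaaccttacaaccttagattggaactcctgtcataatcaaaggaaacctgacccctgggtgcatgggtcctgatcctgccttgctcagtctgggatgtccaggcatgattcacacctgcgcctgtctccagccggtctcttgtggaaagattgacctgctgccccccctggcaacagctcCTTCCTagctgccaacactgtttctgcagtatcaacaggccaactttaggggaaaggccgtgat
Ackr1 (chr1:173333504-173333753, - strand): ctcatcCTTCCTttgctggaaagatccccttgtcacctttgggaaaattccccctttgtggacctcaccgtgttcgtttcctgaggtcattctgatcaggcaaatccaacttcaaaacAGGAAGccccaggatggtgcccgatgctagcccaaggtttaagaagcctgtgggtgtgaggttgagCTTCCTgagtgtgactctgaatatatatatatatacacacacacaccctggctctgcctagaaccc
AGGAAG was present once in the windows of Apln and Selp, 3 times in that of Ackr1 and not in that of Esm1. ACGTG was in none of the 4. The Ackr1 window lies almost wholly within the GENCODE vM21 bounds of the gene, which start farther upstream than the RefSeq transcript. A match is a description of letters and not a bound site.

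Among the genes that fell most, Tmcc3, an endoplasmic reticulum membrane protein gene, was at 997 and 2560.2 CPM (MG1), 372 and 289.6 (MG2), 0, 71.6, 132, 59.6 and 76.6 (MT1) and 0, 0 and 23.8 (MT2). All gland libraries lay above all tumor libraries, and the log2 fold change was -4.63 ± 0.44, adjusted p = 7e-22. Lifr, the receptor of leukemia inhibitory factor, had 265 CPM in gland and 14.9 CPM in tumor (-5.29 ± 0.75, adjusted p = 3.13e-10). Iigp1, an interferon-inducible GTPase, had 1226 (MG1), 261 (MG2), 232 (MT1) and 0 CPM (MT2) (-5.16 ± 0.54, adjusted p = 3.37e-18). Sult1a1, a sulfotransferase, had 40 UMIs in the gland cells and 0 in the tumor cells, a level at least 10.1-fold lower in tumor. Sult1a1 (-2.89) was not called with MG1 replicate 2 in place of MG1 replicate 1. Bmp4, a bone morphogenetic protein ligand, had 69.7 CPM in gland and 2.98 CPM in tumor (-4.58 ± 1.13, adjusted p = 0.00103).

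Ubd had the largest fitted decrease of the named genes, and in MG2 all 425 of its endothelial UMIs lay in Glycam1-high cells. In MG1, 30 of its 86 UMIs lay in the 18 cells that were not Glycam1-high. MG1 replicate 1, the MG1 library in the fit, had no Glycam1-high cell and was at 475 CPM, against 3186 CPM in MG1 replicate 2. The fitted log2 fold change of Ubd in mouse 1 was -3.05. Pooled by group, Ubd was at 1065 (MG1), 1168 (MG2), 71 (MT1) and 0 CPM (MT2), at least 48.5-fold lower in tumor in mouse 2. Its adjusted p was 3.25e-25. Without the Glycam1-high cells the log2 fold change was -1.48 and the adjusted p was 1. Mctp1, Cmah, Lifr and Pcdh7 were also higher in the Glycam1-high than in the other MG2 cells (396 against 171 CPM, 660.4 against 189 CPM, 477 against 180.3 CPM and 726 against 154 CPM), and all 4 kept their call without the Glycam1-high cells. Cmah (-3.69) and Pcdh7 (-2.91) were not called without mixed cells, and Cmah (-3.00) was not called without cells that had a lymphatic gene, which were 39 of 89 cells in MG2, 1 of 19 in MG1, 4 of 84 in MT1 and 5 of 37 in MT2. Pcdh7 (-3.30) was not called with MG1 replicate 2 in place of MG1 replicate 1. The remaining 5 genes of the rule were Stom, Dnm3, Hs3st1, Lipg and Chp2, with log2 fold changes from -4.22 to -3.90. Hs3st1 makes the heparan sulfate that binds antithrombin, and Lipg encodes endothelial lipase. Lipg and Sult1a1 were too low to be tested without the Glycam1-high cells.

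Most tested leukocyte adhesion genes fell in mouse 2. Of the list's 12 genes, 0 of 9 tested members rose and 6 fell, with a median log2 fold change of -1.72 beside -0.02 over all genes tested. In mouse 1 alone 1 of the 9 fell, and in mouse 2 alone 6 fell. Selp, which holds rolling leukocytes, was at 1250.3 and 1195 CPM (MG1), 2142 and 1731 (MG2), 1348, 334, 577, 894 and 536 (MT1) and 49.9, 44.6 and 166 (MT2). It fell by 2.94 ± 0.31, adjusted p = 2.97e-18 on the log2 scale, -1.24 in mouse 1 and -4.65 in mouse 2, and MT1 replicate 1 was the only tumor library within the range of the glands. Ackr1 was at 253 and 284 CPM (MG1), 1287 and 707 (MG2), 578, 931, 264, 417 and 498 (MT1) and 0, 0 and 0 (MT2). Its change was 0.65 in mouse 1 (adjusted p = 0.521) and at least 43.6-fold lower in tumor in mouse 2, and the mice differed (adjusted p of the difference = 2.27e-12). Sele fell in mouse 2 (-5.92, adjusted p = 5.8e-13) and had -0.49 in mouse 1 (adjusted p = 0.701). In the average, Sele (-2.02) was not called with MG1 replicate 2 in place of MG1 replicate 1.

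Icam1, the integrin ligand of firm adhesion, fell by 1.72 ± 0.33 on the log2 scale (adjusted p = 1.37e-05), with 532 (MG1), 445 (MG2), 279 (MT1) and 120.4 CPM (MT2). Jam2, a junctional adhesion molecule, fell by 2.01 ± 0.48 (adjusted p = 0.000652). Jam2 was not called with MG1 replicate 2 in place of MG1 replicate 1 (-1.26) or with the thinned rule. Vcam1 fell in the average (-1.24 ± 0.43, adjusted p = 0.0312), but it was at 124 (MG1), 407 (MG2), 227 (MT1) and 72.3 CPM (MT2), with 0.19 in mouse 1 and -2.66 in mouse 2, and was not called in 15 of 24 alternatives, 6 of which left out 1 library (-1.19 to 2.09). With 4 sums and the mouse as block, Icam1 (-1.48), Jam2 (-1.64) and Ackr1 (-2.16) were not called. The sialomucin gene Cd34 had 173 CPM in gland and 348 CPM in tumor and was not called (adjusted p = 0.0791). All 6 called members of the list kept their call without the Glycam1-high cells. In the gland cells, Selp was detected in 74 of 108 and Ackr1 in 61, with both in 56. In the tumor cells, 27 of 121 had Selp, 13 had Ackr1 and 11 had both. Apln was together with Ackr1 in 2 tumor cells.

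Most tested genes of fatty acid handling fell. Of the 14 listed genes, 1 of 7 tested members rose and 4 fell, with a median of -2.95. Fabp5 (adjusted p = 0.271) and Pparg (adjusted p = 0.0524) were not called, and Fabp5 was at 99.1 (MG1), 38.5 (MG2), 511 (MT1) and 0 CPM (MT2). Cd36 was at 2548 and 3869 CPM (MG1), 720.1 and 741 (MG2), 770.5, 167, 132, 372 and 192 (MT1) and 33.3, 89.2 and 143 (MT2). MT1 replicate 1 alone reached the range of the glands, and Cd36 fell in both mice (-3.56 in mouse 1 and -3.36 in mouse 2, average -3.46 ± 0.31, adjusted p = 1.86e-24). Fabp4, the fatty acid carrier of capillary endothelium, was the most abundant member. It had 13187 (MG1), 3294 (MG2), 3507 (MT1) and 570.0 CPM (MT2), and it fell in both mice (-2.34 in mouse 1 and -2.82 in mouse 2, average -2.58 ± 0.25, adjusted p = 1.15e-21). The pooled levels of Fabp4 in MG2 and MT1 lay side by side although one is gland and the other tumor. Lpl (lipoprotein lipase) fell by 4.37 ± 1.04 (adjusted p = 0.000644), and it was not called without MG2 replicate 2 (-3.29), without mixed cells (-3.04), with DESeq2 (-3.79) or with the thinned rule (-3.34). Its level was 67.5 CPM in gland and 5.96 CPM in tumor endothelial cells against 71.7 and 6.60 CPM in the other cells. Meox2, a transcription factor of fat and heart capillaries, fell by 3.04 ± 0.94 (adjusted p = 0.0123), and it was not called without MG2 replicate 1 (-2.60) or without MT2 replicate 1 (-3.00). Gpihbp1, which carries lipoprotein lipase across capillaries, rose: it was at 364 and 739.6 CPM (MG1), 69.7 and 121 (MG2), 1669, 812, 726, 596 and 728 (MT1) and 666, 580.0 and 689.7 (MT2), with a change of 1.67 ± 0.34, adjusted p = 3.12e-05.

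Several basement membrane and matrix genes rose. Of the 20 listed genes, 9 of 18 tested members rose and 1 fell, with a median of 1.03. In mouse 1 alone 2 rose and 0 fell, and in mouse 2 alone 10 rose and 2 fell. Sparc, a collagen-binding matrix protein, was at 1076 and 626 CPM (MG1), 725 and 1199 (MG2), 5522, 5325, 7407, 3918 and 4406 (MT1) and 4559.6, 3971 and 4828 (MT2). The lowest tumor library lay above the highest gland library, and the change was 1.94 ± 0.30, adjusted p = 1.71e-08, 1.91 in mouse 1 and 1.97 in mouse 2. Col4a1 and Col4a2, the chains of the main type IV collagen of vessels, rose by 1.31 ± 0.30 (adjusted p = 0.000333) and 1.95 ± 0.36 (adjusted p = 2.75e-06). Nid2 (nidogen 2), which links laminin to collagen IV, was at 15.8 and 0 CPM (MG1), 9.29 and 13.5 (MG2), 321, 239, 198, 164 and 192 (MT1) and 166, 134 and 190.2 (MT2), and its groups did not overlap (3.36 ± 0.63, adjusted p = 6.31e-06). Lama4, the laminin chain of endothelium, had 108 CPM in gland and 601 CPM in tumor (1.74 ± 0.35, adjusted p = 3.69e-05). Col18a1, Sparcl1 and Igfbp7 also rose, by 1.26, 0.89 and 0.87, and Sparcl1 lost its call without the Glycam1-high cells (log2 fold change 0.69, adjusted p = 0.0606). Col18a1 was not called without MG2 replicate 1 (1.01). Igfbp7 was not called with the additive mouse block (0.77) or with 4 sums and the mouse block (1.06), and Sparcl1 not with the latter (1.24), without mixed cells (0.75) or without cells that had a lymphatic gene (0.59). The other cells were higher in tumor too for Sparc (278 and 983 CPM in gland and tumor), Col4a1 (86.2 and 521), Col4a2 (35.2 and 237), Col18a1 (18.6 and 311) and Igfbp7 (126 and 818), but not for Nid2 (1.75 and 0.402), Lama4 (42 and 35.5) or Sparcl1 (79.6 and 35.5). The part of free RNA in the endothelial values was not tested.

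Fn1 (fibronectin) rose in the average and in mouse 2 and did not pass the test in mouse 1. It was at 198 (MG1), 33 (MG2), 123 (MT1) and 1124 CPM (MT2), with -1.39 in mouse 1 and 4.88 in mouse 2, and the mice differed (adjusted p = 1.26e-11). The other cells had 161 CPM of Fn1 in MT1 and 2181 CPM in MT2. The part of free RNA in that value was not tested. Mgp (matrix Gla protein) was the 1 member that fell (-1.53 ± 0.38, adjusted p = 0.00106). Its sign turned without mixed cells (2.17), without cells that had a lymphatic gene (1.91) and with MG1 replicate 2 in place of MG1 replicate 1 (2.13).

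**Figure D4:**
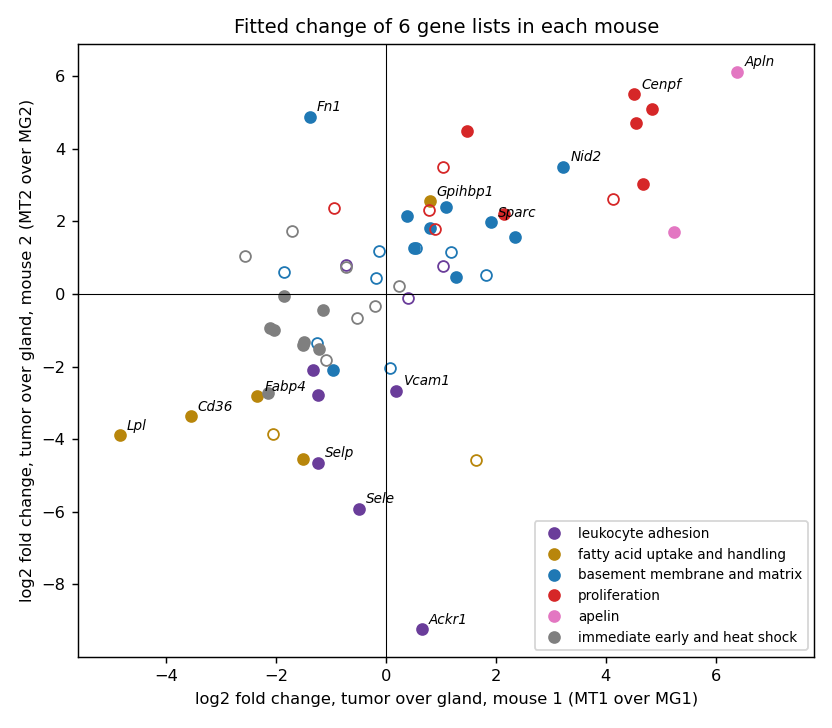
Fitted log2 fold change of tumor over gland in mouse 1 (x axis) and mouse 2 (y axis) for the tested genes of 6 lists; points are genes, filled where the average over mice was called and open where it was not. Matrix, proliferation and apelin genes lie mostly at upper right and the called fatty acid genes other than Gpihbp1 at lower left, while Ackr1, Sele and Vcam1 lie between -0.49 and 0.65 in mouse 1 and below 0 in mouse 2 and Fn1 lies at upper left. Fitted values of genes with 0 UMIs in a group depend on the prior count.

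In the VEGF list (9 genes), 1 of 5 tested members rose: Pgf, the placental growth factor that binds Flt1, was at 47.5 and 0 CPM (MG1), 9.29 and 6.73 (MG2), 128, 429.8, 181, 238 and 268 (MT1) and 216, 178 and 119 (MT2) (2.98 ± 0.55, adjusted p = 3.73e-06). The co-receptor Nrp1 had 532 (MG1), 140.2 (MG2), 317 (MT1) and 241 CPM (MT2) and was not called. In mouse 2 alone 1 member of the list rose and 1 fell. Vegfa went opposite ways in the mice, with library means of 15.8 (MG1), 181 (MG2), 118 (MT1) and 15.9 CPM (MT2). In the angiopoietin and Tie list (8 genes), Ptprb and Angptl4 fell of 5 tested. Ptprb was at 823 and 739.6 CPM (MG1), 818 and 626 (MG2), 64.2, 191, 544, 253 and 268 (MT1) and 266, 44.6 and 190.2 (MT2), with no overlap of gland and tumor (-1.97 ± 0.31, adjusted p = 1.95e-08, -1.81 in mouse 1 and -2.13 in mouse 2). Angptl4 had 272 (MG1), 327 (MG2), 222 (MT1) and 96.3 CPM (MT2) (adjusted p = 0.0319) and was not called in 10 of 24 alternatives (that without the Glycam1-high cells, -0.44, among them), 4 of which left out 1 library (-1.08 to -0.93). In the Notch list (15 genes), the ligand Dll1 (-2.66 ± 1.00, adjusted p = 0.0484) and the target Hes1 (-1.55 ± 0.37, adjusted p = 0.00069) fell of 8 tested. Dll1 was not called in 7 of 13 alternatives, 2 of which left out 1 library (MT1 replicate 1, -2.57, or MT2 replicate 3, -2.37). Hes1 had the opposite sign when MG1 replicate 2 stood for MG1 replicate 1 (0.53). In the TGF-beta and BMP list (14 genes), Bmp4 fell and none rose of 8 tested. Of all genes tested 11.3% fell, so 1 of 8 is no clear excess. The PDGF list had 1 gene that could be tested, and it was not called.

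Among junction genes (12 listed), Tjp1, the tight junction scaffold, and Jam2 fell and none rose of 7 tested. Tjp1 (-1.46 ± 0.45, adjusted p = 0.0133) was not called without MG2 replicate 1 (-1.13) or with MG1 replicate 2 in place of MG1 replicate 1 (-0.28). Tjp1 was also not called with either mouse block (-1.24 additive and -1.09 with 4 sums), with DESeq2 (-1.46), with the thinned rule (-0.75) or with a minimum of 1 cell per library (-1.16). The gap junction gene Gja1 had 359 (MG1), 569 (MG2), 620.0 (MT1) and 409 CPM (MT2) and was not called. Among caveolae and fenestrae genes (9 listed), Cavin3 rose (1.22 ± 0.38, adjusted p = 0.0135) and Cavin2 fell (-1.51 ± 0.30, adjusted p = 1.62e-05) of 8 tested, both being coat proteins of caveolae. Beside 5.08% higher and 11.3% lower of all genes tested, 1 of 8 in each direction is no clear excess. Cavin2 was not called with 4 sums and the mouse as block (-1.27). Cavin3 was not called with either mouse block (0.92 additive and 1.33 with 4 sums) or without the low-count filter (1.13). Cav1 itself had 260.0 (MG1), 126 (MG2), 558 (MT1) and 329 CPM (MT2) (adjusted p = 0.0651). Of 19 tested endothelial transcription factors (23 listed), none rose and Erg, Etv6, Nr2f2 and Meox2 fell. Erg, the ETS factor that maintains endothelial identity, fell by 1.28 ± 0.38 (adjusted p = 0.00841) and was not called without MG2 replicate 1 (-1.06) or with MG1 replicate 2 in place of MG1 replicate 1 (-0.71). Nr2f2, the factor that sets venous identity, fell by 1.64 ± 0.56 (adjusted p = 0.0266), and was not called in 11 of 24 alternatives (that without the Glycam1-high cells among them), 4 of which left out 1 library (-1.44 to 1.32). Etv6 was not called in 11 of 21 alternatives, 6 of which left out 1 library (-2.01 to -1.61). Of 12 tested shear and vasoregulation genes (14 listed), the anticoagulant receptors Thbd (-1.88 ± 0.41, adjusted p = 0.000152) and Procr (-1.64 ± 0.37, adjusted p = 0.000242) and the vasoconstrictor Edn1 (adjusted p = 0.0366) fell, and none rose. Edn1 was not called in 20 of 24 alternatives, 9 of which left out 1 library (-1.05 to -0.73). Thbd (-1.14) was not called with MG1 replicate 2 in place of MG1 replicate 1, where Procr had the opposite sign (2.08). Procr was also not called without mixed cells (-1.40).

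Several immediate early genes fell in endothelial cells. Of 15 tested in the list, which also holds 3 heat shock genes, 8 fell and none rose, with a median of -0.96. Egr1 was at 1124 and 1593 CPM (MG1), 1059 and 1051 (MG2), 193, 669, 214, 298 and 192 (MT1) and 133, 178 and 262 (MT2), all gland libraries above all tumor libraries (-2.43 ± 0.30, adjusted p = 1.39e-13). Its level in the other cells was 899.9 CPM in the glands and 393 CPM in the tumors. Fos, Fosb, Jun, Junb, Jund, Ier3 and Zfp36 fell too, by 0.80 to 1.53 on the log2 scale. Of these 7, Ier3 was higher in the other cells of the tumors than in those of the glands (663 and 298 CPM) and the other 6 were lower there, such as Fos (587 and 1964 CPM). With MG1 replicate 2 in place of MG1 replicate 1, Fos (0.50) and Jund (0.23) had the opposite sign. Jund was not called in 16 of 24 alternatives, 8 of which left out 1 library (-0.81 to 0.23). Ier3 was not called in 11 of 24 alternatives, 5 of which left out 1 library (-0.88 to -0.25). Jun (-0.27), Junb (-1.03) and Zfp36 (-1.21) were not called with MG1 replicate 2 in place of MG1 replicate 1. These genes answer within minutes to the dissociation of tissue, and the part of handling was not tested.

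Among interleukin and chemokine genes (13 listed), Csf3, Il6st, Cxcl12 and Il6 fell and none rose of 10 tested in the average. The mice went different ways: the median log2 fold change of the list was -1.74 in mouse 1 and 0.35 in mouse 2. In mouse 2 alone 4 members rose and 3 fell. Csf3, the granulocyte colony-stimulating factor, had 285 (MG1), 731 (MG2), 85.2 (MT1) and 48.2 CPM (MT2) (-3.07 ± 0.43, adjusted p = 1.58e-10). Il6st, the shared receptor subunit gp130, had 396 (MG1), 388 (MG2), 170.4 (MT1) and 32.1 CPM (MT2) (-2.67 ± 0.41, adjusted p = 9.05e-09). Il6 was not called in 11 of 24 alternatives, 8 of which left out 1 library (-1.14 to -0.99). Cxcl1 and Cxcl2, which draw neutrophils, were not called in the average and had opposite signs in the mice. Cxcl1 was at 1820 and 0 CPM in the MG1 libraries, 1361 and 1091 (MG2), 514 to 1147 (MT1) and 2479 to 4471 (MT2), with -1.60 in mouse 1 and 1.23 in mouse 2. MG1 replicate 2, which had too few cells for the fit, lay below all MT1 libraries, so the sign of Cxcl1 in mouse 1 rested on MG1 replicate 1. Cxcl2 was at 619 (MG1), 803 (MG2), 199 (MT1) and 2890.2 CPM (MT2) (-2.33 in mouse 1 and 1.67 in mouse 2, adjusted p of the difference = 4.85e-09), and the other cells had 327, 904, 498 and 3865 CPM in the same order. Genes called as different between the mice were 2.18% of those tested.

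Of 15 tested interferon response genes (16 listed), Rsad2 rose (2.58 ± 0.66, adjusted p = 0.00161) and Iigp1 and Cxcl9 fell. Rsad2 was not called without MT2 replicate 3 (2.06). Of all genes tested 5.08% rose and 11.3% fell, so 1 and 2 of the 15 interferon genes are no clear excess. Of the 3 tested MHC genes (10 listed), H2-K1 fell in the average (-0.98 ± 0.29, adjusted p = 0.00896), with 1275 (MG1), 1413 (MG2), 2579 (MT1) and 225 CPM (MT2) and a difference between the mice (adjusted p = 6.68e-07). H2-K1 was not called without the Glycam1-high cells, or without MT2 replicate 3 (-0.76). The other 2 also went opposite ways in the mice, as means over libraries. B2m was at 2443 (MG1), 2307 (MG2), 7586 (MT1) and 1663 CPM (MT2), and H2-D1 at 2132, 2625, 4770 and 1085 CPM in the same order. Of 16 tested hypoxia and glycolysis genes (20 listed), the glycolytic enzymes Pkm (1.95), Eno1 (2.15), Pgk1 (1.85) and Aldoa (1.60) rose and the hexokinase Hk2 fell (-2.37), and the median of the list was 0.04. Pkm was at 111 (MG1), 217 (MG2), 857 (MT1) and 658 CPM (MT2), and the other cells were at 218 CPM in gland and 754 CPM in tumor. Hk2 had 260.0 (MG1), 22 (MG2), 4.73 (MT1) and 64.2 CPM (MT2), differed between the mice (adjusted p = 2.1e-05) and was not called without MG2 replicate 1 (-2.21) or with MG1 replicate 2 in place of MG1 replicate 1 (1.49). Pgk1 was not called in 6 of 24 alternatives (0.18 with the thinned rule and 2.87 without mixed cells among them), and Eno1 was not called without mixed cells (1.37). The other cells had 78.9 CPM of Eno1 and 59.7 CPM of Pgk1 in gland, against 339 and 242 CPM in tumor. Aldoa (1.23) was not called with MG1 replicate 2 in place of MG1 replicate 1. The hypoxia gene Ldha had 235 (MG1), 236 (MG2), 350.2 (MT1) and 353 CPM (MT2) and was not called.

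Milk genes served as a measure of RNA from secretory cells. Of 9 tested, 7 fell in endothelial cells. Csn2 had 1239.6 CPM in the gland endothelial cells and 0 in the tumor ones, and the other cells had 2150.2 and 5.08 CPM. Wfdc18 had 173 (MG1), 641 (MG2), 3815 (MT1) and 0 CPM (MT2), with 6071 CPM in the other cells of MT1, and was not called in 18 of 24 alternatives, 8 of which left out 1 library (-2.27 to -1.89). Trf (0.85) was not called with MG1 replicate 2 in place of MG1 replicate 1.

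Cells were also described by vessel class, counting those with 2 or more detected genes of a class list after thinning every cell to 1000 UMIs. A cell could be in several classes, and no test was made since the cells had been chosen by their own counts. Venous genes were found in 5 of 19 cells in MG1 (26.3%), 63 of 89 cells in MG2 (70.8%), 19 of 84 cells in MT1 (22.6%) and 4 of 37 in MT2 (10.8%). Without thinning, 97 of 108 gland cells and 53 of 121 tumor cells met the venous limit. The other cells met it in 2.1% in gland and 0.671% in tumor, at median depths of 2665 and 2546 UMIs before thinning. Within MG2 the thinned share was 78.8% in the Glycam1-high and 66.1% in the other cells. MG2 thus had a larger venous share than MG1, MT1 or MT2, while MG1 and MT1 were close.

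Tip and angiogenic genes were found in 10 of 19 cells in MG1 (52.6%), 43 of 89 cells in MG2 (48.3%), 65 of 84 cells in MT1 (77.4%) and 36 of 37 in MT2 (97.3%). Unthinned, 89 of 108 gland and 116 of 121 tumor cells met the limit. Both tumors lay above both glands, but the other cells of MT2 also met the limit in 34.8% (MG1 7.38%, MG2 6.06%, MT1 6.82%). The list holds matrix genes such as Col4a1, which are not limited to vessels. Capillary genes were found in 17 of 19 cells in MG1 (89.5%), 57 of 89 cells in MG2 (64%), 65 of 84 cells in MT1 (77.4%) and 16 of 37 in MT2 (43.2%), and arterial genes in 2 of 19 cells in MG1 (10.5%), 8 of 89 cells in MG2 (8.99%), 6 of 84 cells in MT1 (7.14%) and 1 of 37 in MT2 (2.7%). The other cells of MT1 met the capillary limit in 28.4%. Unthinned, the arterial limit was met by 43 of 108 gland and 16 of 121 tumor cells. Lymphatic genes were found in 0 of 19 cells in MG1 (0%), 6 of 89 cells in MG2 (6.74%), 0 of 84 cells in MT1 (0%) and 1 of 37 in MT2 (2.7%). Unthinned, 11 of the 89 MG2 cells met the lymphatic limit, and 4 of these were Glycam1-high.

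**Figure D5:**
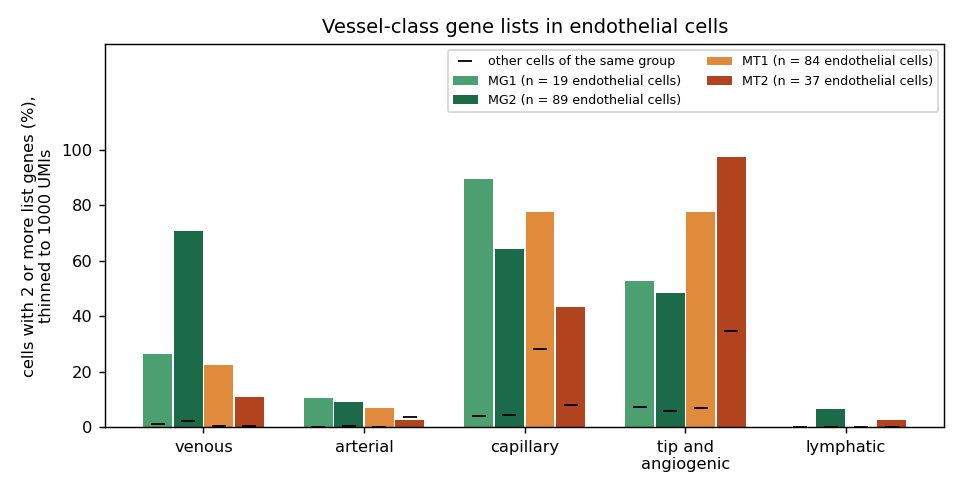
Percentage of endothelial cells with 2 or more genes of each vessel-class list after thinning to 1000 UMIs, by group (bars), with the same percentage in the other cells of that group (short black lines). The venous bar is highest in MG2 (70.8%) and the tip and angiogenic bar in MT2 (97.3%).

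Some proliferation genes rose in the tumor endothelial sums. Of 18 listed genes, 6 of 11 tested members rose and 0 fell: Top2a, Birc5, Cdk1, Cenpf, Ube2c and Cdca8. In mouse 1 alone none of the 11 was called, and in mouse 2 alone 6 rose. Top2a, the topoisomerase of dividing cells, had 24.8 (MG1), 30.2 (MG2), 194 (MT1) and 177 CPM (MT2) (2.18 ± 0.55, adjusted p = 0.00161). Cenpf, Ube2c and Cdca8 had 0 UMIs in the gland endothelial cells and were at least 8.82-, 8.38- and 7.06-fold higher in tumor. Birc5 was not called without the Glycam1-high cells, or without MG2 replicate 1 (2.89) or without MG2 replicate 2 (2.96) or without MT2 replicate 2 (2.56). Its log2 fold change lay between 2.56 and 4.68 in all alternatives in which it had a value. Cdk1 was not called in 8 of 21 alternatives, 4 of which left out 1 library (3.22 to 3.88). The other cells of the tumors had 462 CPM of Top2a against 43 CPM in the glands.

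Cell by cell, with each cell thinned to 500 UMIs, 2 or more UMIs of the 18 proliferation genes were found in 0 of 19 in MG1 (0%), 2 of 89 in MG2 (2.25%), 11 of 84 in MT1 (13.1%) and 4 of 37 in MT2 (10.8%) of the endothelial cells. Before thinning these shares were 5.26, 5.62, 27.4 and 40.5%, and thinning left out no cell. Over the 11 libraries with at least 5 endothelial cells, tumor minus gland was 11.1 points (13.5 in mouse 1 and 8.75 in mouse 2), which did not pass the threshold (two-sided exact permutation within mouse, 60 arrangements, p = 0.05, adjusted p = 0.075 over 3 shares). With a limit of 1 UMI in place of 2 the difference was 20.9 points (exact permutation p = 0.0333). With 1 library left out, p fell under 0.05 without MT1 replicate 1 (9.66 points, exact permutation p = 0.04) or MT1 replicate 2 (12.8 points, exact permutation p = 0.02) and not in the other 8 cases (exact permutation p = 0.06 to 0.167). With thinning to 1000 UMIs it was 12.1 points (exact permutation p = 0.15). These p-values are unadjusted. Fibroblasts of the same groups met the limit in 0 of 131 in MG1 (0%), 2 of 137 in MG2 (1.46%), 5 of 113 in MT1 (4.42%) and 155 of 763 in MT2 (20.3%). All other cells met it in 5 of 799 in MG1 (0.626%), 21 of 2244 in MG2 (0.936%), 984 of 7605 in MT1 (12.9%) and 2711 of 10274 in MT2 (26.4%). Endothelial cells of MT1 were close to the other MT1 cells, and those of MT2 were below the other MT2 cells. No cycling was read from these counts alone, and the part of free RNA was not tested.

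The mural rule found 6 cells, 2 in MG2 replicate 1, 1 in MT1 replicate 3, 1 in MT2 replicate 1 and 2 in MT2 replicate 2. No library had 5 mural cells, so gland and tumor mural cells were not compared gene by gene. The mean mural share was 0% (MG1), 0.0845% (MG2), 0.00802% (MT1) and 0.0262% (MT2) (tumor minus gland -0.0251 points, exact permutation p = 0.786, two-sided, adjusted p = 0.786). The sign rested on the 2 MG2 cells: the difference was 0.0137 points without mixed cells, with 4 markers or with the thinned rule, and 0.0171 points without MG2 replicate 1. In a library with no mural cell, 3 counts set the upper limit of the share, at most 2.86%. Just outside the rule, 55 non-endothelial cells had exactly 2 mural markers, with a median of 6190 UMIs, against 5 of the 6 members with 3 or 4 markers and 1 with 5.

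Of the 6 cells, 3 carried Rgs5, Mcam and Abcc9 together. The MT1 cell (1560 UMIs) had 3 UMIs of Rgs5, the regulator of G protein signalling of pericytes, 2 of the PDGF receptor gene Pdgfrb, 2 of Mcam and 1 of the potassium channel subunit gene Abcc9. The cell of MT2 replicate 1 (1887 UMIs) had 3 of Rgs5, 2 of Pdgfrb, 2 of Mcam and 1 of Abcc9. A cell of MT2 replicate 2 (2731 UMIs) had 10 of Rgs5, 20 of the smooth muscle actin gene Acta2, 4 of Tagln and 2 of Myh11, with 0 of Pdgfrb. All 3 of these had 0 UMIs of Epcam and of Pecam1, and they had 5, 3 and 17 UMIs of the collagen gene Col1a1, which fibroblasts also use. The 2 MG2 cells carried epithelial genes beside their mural markers. They had 18877 and 8714 UMIs, 50 and 35 UMIs of Epcam and 1 and 23 of Krt14, with no more than 2 UMIs of any rule gene. Of 11 mural genes outside the rule, the second had Vtn (1 UMI), Gucy1a1 (2), Steap4 (2) and Heyl (1), and the first Steap4 (1). The MT1 cell had Higd1b, Cspg4 and Gucy1a1 (1 each). The cell of MT2 replicate 1 and the MT2 replicate 2 cell with Rgs5 had only Ebf1 (2 and 1). Whether the MG2 cells mixed 2 cell types was not tested. The other cell of MT2 replicate 2 (7412 UMIs) had 8 UMIs of the fibroblast gene Dcn and 1 UMI each of Notch3, Pdgfrb and Kcnj8. The gland suspensions thus held no cell with Rgs5 and Pdgfrb above 1 UMI each among the cells of the mural rule.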

How the data were processed

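Drop-seq libraries from the mammary glands and tumors of 2 mice were analysed. Reads had been aligned by the authors to GRCm38.p6 with STAR within the Drop-seq pipeline. What they deposited is a table of UMI counts, not normalized, of 21743 genes in 21157 cells that had passed their filters on cells and genes. Strand use and the treatment of paralogs in counting are not given in the sources used here, so overlapping genes and paralogs are uncertain. Samples were grouped by the labels, and no column was left unassigned. Doublets were not called; mixed cells were counted and left out in an alternative.

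Cells were chosen by the 2 marker rules. The members, gene lists and tests were chosen with earlier results of these data known. Counts were summed over the endothelial cells of each library with at least 5 and fitted in edgeR 4.0.16 (R 4.3.3, TMM, filterByExpr with a minimum count of 5), with MG1, MG2, MT1 and MT2 in 1 fit. The main contrast was the mean over mice of tumor minus gland, and the 8 rule genes were in the fit but not tested. Values after ± beside a log2 fold change are standard errors taken from the F statistic. CPM are UMIs per 1000000 UMIs of the summed cells, and the depth was 80764 endothelial UMIs (MG1), 363731 (MG2), 211294 (MT1) and 124558 (MT2). Folds written "at least" were computed against 3 counts over a group with no UMI of the gene. Fitted log2 fold changes of genes with 0 UMIs in 1 of the 4 groups depend on the prior count. The named genes were the 15 largest increases and 15 largest decreases among genes called in the average, of the same sign in both mice, outside the rule, and at least 4-fold above the cells outside the vascular sets of that tissue (130 met this). Some genes that met these rules are not reported here. From the lists, called genes and up to 4 abundant others were eligible. Of the list genes, Aqp7, Gja5, Gucy1a3, Gucy1b3, Hbb-bt and Lyl1 are not in the count table used here. Counts were also simulated with these library sizes, the same change in both mice and no free RNA. Of the changed genes that passed the count filter, 56 of 89 changed by 2 on the log2 scale (62.9%) were called. Of those changed by 4, 98 of 98 were called (average comparison, 4326 genes tested). The real data differ in these points, so the shares are not those of the real comparison. Alternatives were DESeq2 1.42.0, RLE size factors, other filters, cell rules, library minimums and blocks, and leaving out each library.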

Additional observations from a re-analysis of the deposited data

Results flagged for a closer look

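MT1 was the only group with enough libraries to look for one that stood apart from the others, and 100 values were looked at, of which 15 were marked, where chance marks about 1 in 20. The median number of UMIs per endothelial cell in MT1 replicate 2 was 3516, and the next library had 2010.5. For 12 genes 1 MT1 library was high, at 907 CPM for Esm1, 192 CPM for Gng2, 14.9 CPM for Bmp4, 115 CPM for Stom, 47.8 CPM for Pcdh7, 1669 CPM for Gpihbp1, 29.8 CPM for Lpl, 525 CPM for Mgp, 669 CPM for Egr1, 16.5 CPM for Hk2, 179 CPM for Csf3 and 689.7 CPM for Csn3. The values of Bmp4, Lpl, Hk2 and Pcdh7 are those of 2 or fewer UMIs, with 0 in the other 4 libraries, and Stom also had 0 in the other 4. For 2 genes 1 library was low, at 76.6 CPM for Erg (next 193) and 651 CPM for Jun (next 1284).

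For 14 of the 98 genes named or called in the lists, the change from gland to tumor differed between the mice by the test of that difference (edgeR, adjusted over 4901 genes). As the change in mouse 1 minus that in mouse 2 on the log2 scale, the difference was 3.85 for Igfbp3 (adjusted p = 0.0256), 6.39 for Ubd (adjusted p = 0.00317), 6.71 for Cmah (adjusted p = 0.0254), 5.43 for Sele (adjusted p = 0.000118), 3.41 for Selp (adjusted p = 0.000116), 2.85 for Vcam1 (adjusted p = 0.0271), 9.87 for Ackr1 (adjusted p = 2.27e-12), -6.27 for Fn1 (adjusted p = 1.26e-11), 3.79 for H2-K1 (adjusted p = 6.68e-07), -7.24 for Hk2 (adjusted p = 2.1e-05), 7.07 for Csn3 (adjusted p = 0.000139), 6.27 for Trf (adjusted p = 9.46e-07), 12.56 for Wfdc18 (adjusted p = 2.29e-22) and 6.12 for Lcn2 (adjusted p = 5.8e-11). The mouse 1 gland is 1 library of 15 endothelial cells in this fit and its spread is taken from the other groups. Fitted differences of Ubd, Cmah, Ackr1, Csn3 and Wfdc18 involve MT2 at 0 UMIs and depend on the prior count.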

How the results depend on the processing

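The total of 802 called genes became 376 with DESeq2, 425 with the rule applied to cells thinned to 1000 UMIs, 375 without mixed cells and 229 with 1 sum per group and the mouse as block. With an additive mouse block over libraries it was 705. Leaving out 1 library gave 493 to 815. The mouse 1 total of 336 became 132, 207 and 133 with DESeq2, no low-count filter and no mixed cells, and 243 to 359 with 1 library left out. The mouse 2 total of 596 became 247, 192 and 324 with DESeq2, the thinned rule and no mixed cells, and 321 to 614. The 107 differences between the mice became 53, 19, 25 and, without cells that had a lymphatic gene, 66, and 81 to 143. The causes were not tested, beyond fewer cells and genes entering the fits without mixed cells and with the thinned rule.

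Without a filter 126 genes were higher and 497 lower of 14460, without the Glycam1-high cells 310 and 485, and with RLE size factors 282 and 559, beside 249 and 553. With a library minimum of 1 cell the split was 376 and 424. RLE moved the median gene by 0.02. Without MG1 replicate 1 the average, mouse 1 and difference fits need the 4 cells of MG1 replicate 2, an alternative chosen after seeing the data, as were those on Glycam1 and lymphatic genes. Of the 98 genes named or called in lists, 58 kept their call with DESeq2, 97 with RLE, 51 with 4 sums and the block, and 85 of 96 without the Glycam1-high cells. The sign turned without mixed cells for Vcam1 1.22, Mgp 2.17 and Wfdc18 1.42, with the 4 sums for Wfdc18 0.012, without lymphatic-gene cells for Mgp 1.91, and with MG1 replicate 2 for MG1 replicate 1 for Hes1 0.53, Vcam1 2.09, Mgp 2.13, Nr2f2 1.32, Procr 2.08, Fos 0.50, Jund 0.23, Hk2 1.49 and Trf 0.85.

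The endothelial share difference of -2.61 points ranged from -3.04 to -2.19 with 1 library left out and passed the threshold in each alternative run. The mural difference of -0.0251 points became 0.0137 with the thinned rule, with 4 markers and without mixed cells, and -0.0674 to 0.0171 with 1 library left out, and never passed. The proliferating share difference of 11.1 points became 20.9 with 1 UMI and 9.66 to 12.8 with 1 library left out. No fit was made for mural cells, since no library held 5. No paired analysis was possible by replicate number because libraries were numbered in accession order; the mouse was used as the block instead. At 15 MG1 cells, 1 UMI of that library is 15.8 CPM, so low genes of the mouse 1 gland are not measurable.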
